A study of Mus musculus with 28 samples.

Results

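Ion channel genes were followed through a mouse model of multiple sclerosis, in whole cortex and in RNA pulled down with the ribosomes of layer 5 projection neurons. The set held 138 of the 43629 genes in the count table: 94 potassium, 14 sodium, 26 calcium and 4 HCN channel genes. Members were chosen by symbol alone (Kcn, Scn with a number and a or b, Cacn, and the HCN genes), and 5 antisense or host transcripts of the same names were left out. The label "voltage-gated" is narrower than the genes it covers. Of the potassium genes, 40 encode pore-forming Kv subunits and 13 their auxiliary subunits, while 15 inward rectifiers, 14 tandem-pore-domain leak channels and 12 calcium- or sodium-activated channel genes include many that are not gated by voltage. The sodium genes were 10 pore and 4 auxiliary genes, and the calcium genes 10 pore, 8 auxiliary and 8 gamma genes, several of which are better known as partners of AMPA receptors.

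Each channel family sets a different part of a neuron's electrical behaviour. Sodium channels start the action potential at the axon initial segment, Kv channels end it and set the firing rate, calcium channels couple firing to transmitter release and to dendritic spikes, and HCN channels carry an inward current at rest that is prominent in the dendrites of layer 5 pyramidal cells. Pore subunits are long proteins with long messenger RNAs, while many auxiliary subunits are short proteins that set surface level, position and gating.

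All mice carried the Glt25d2 BacTRAP transgene, in which regulatory sequence of Glt25d2 (now Colgalt2) drives a ribosome tag in projection neurons of layer 5 (the submitters call them layer 5 motoneurons). One group was healthy. The others had actively induced experimental autoimmune encephalomyelitis (EAE), for which the antigen was MOG35-55, a peptide of a myelin protein, and were sampled at 15 days (acute) or 30 days (chronic), and both the RNA pulled down with the tag (IP) and cortical RNA without pulldown (Input) were sequenced. There were 5 healthy, 5 acute and 4 chronic libraries of each fraction, 28 in all. The labels used here name no age, sex or strain background, and they do not state that each library is another animal, so p-values rest on a spread between libraries that could be technical in part or in full. In bulk RNA, fewer cells of a type and less RNA per cell cannot be told apart.

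Input libraries held 17848273 to 27915940 counts and IP libraries 6198088 to 21229550, and 126 to 133 members had a read in each Input library against 77 to 119 in each IP library. Channel genes took 0.799% to 0.944% of the counts in Input and 0.578% to 0.782% in IP. The common biological coefficient of variation (the spread between libraries beyond counting error) was 0.101 in Input and 1.06 in IP. The 4 IP libraries with the fewest detected genes were acute replicates 1 and 3, chronic replicate 3 and healthy replicate 5, and results are given without them where they move. The pulldown raised 5 of 8 markers of layer 5 projection neurons in healthy mice, among them Fezf2, the transcription factor that specifies these cells (log2 ratio 1.87 ± 0.20 SE, edgeR quasi-likelihood adjusted p = 7.35e-08). It lowered 4 of 6 oligodendrocyte, 2 of 6 astrocyte and 3 of 8 inhibitory neuron markers, but Gad1 was still at 242 to 444 CPM in the healthy IP libraries (CPM is the count scaled to a common library size). It also lowered 3 of 7 upper layer and layer 6 markers and 1 of 4 leukocyte markers tested. None of 6 microglia or 6 endothelial and mural markers was called, and 1 of 2 oligodendrocyte precursor markers was higher. In chronic mice 2 of 6 oligodendrocyte markers were higher in IP and 3 lower.

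Promoter windows from RefSeq (build GRCm38.p6, 250 bases before to 50 after a start site) were found for 101 of the 138 members, in 137 windows. Those of 4 members whose Input level differed in acute disease are shown, 5′ to 3′ on the gene's strand, because these genes are the ones that moved together or against each other below. Capitals mark GGGCGG, the core of the GC box that Sp family factors bind, and TGACGT, a CRE core, on either strand. Kcnj3 encodes a G protein-gated inward rectifier that brakes firing, and its window is chr2:55435720-55436019 on the plus strand.
Kcnj3: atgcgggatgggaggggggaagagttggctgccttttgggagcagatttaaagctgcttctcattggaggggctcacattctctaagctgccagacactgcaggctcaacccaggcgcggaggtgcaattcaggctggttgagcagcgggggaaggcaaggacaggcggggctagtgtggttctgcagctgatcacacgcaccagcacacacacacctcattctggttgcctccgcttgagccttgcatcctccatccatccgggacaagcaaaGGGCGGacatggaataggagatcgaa
Kcnh7 encodes an ERG-type Kv channel, with a window at chr2:63184238-63184537 on the minus strand.
Kcnh7: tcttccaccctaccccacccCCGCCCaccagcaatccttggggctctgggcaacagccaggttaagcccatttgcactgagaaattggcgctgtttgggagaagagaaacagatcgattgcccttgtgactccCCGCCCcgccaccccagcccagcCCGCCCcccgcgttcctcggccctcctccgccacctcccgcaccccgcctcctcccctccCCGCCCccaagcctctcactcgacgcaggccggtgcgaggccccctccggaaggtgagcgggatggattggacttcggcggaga
Cacnb4 encodes a calcium channel beta subunit, and the window shown is chr2:52676094-52676393 on the minus strand, 1 of its 3 windows.
Cacnb4: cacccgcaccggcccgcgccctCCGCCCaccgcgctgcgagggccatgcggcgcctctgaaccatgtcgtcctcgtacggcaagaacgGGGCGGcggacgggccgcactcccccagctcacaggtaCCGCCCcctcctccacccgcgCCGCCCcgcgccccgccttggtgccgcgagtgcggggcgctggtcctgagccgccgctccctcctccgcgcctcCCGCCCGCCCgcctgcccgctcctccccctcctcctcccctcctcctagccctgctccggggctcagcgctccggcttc
Kcnab2 encodes the main Kv beta subunit of brain, and the window shown is chr4:152477500-152477799 on the minus strand, also 1 of 3.
Kcnab2: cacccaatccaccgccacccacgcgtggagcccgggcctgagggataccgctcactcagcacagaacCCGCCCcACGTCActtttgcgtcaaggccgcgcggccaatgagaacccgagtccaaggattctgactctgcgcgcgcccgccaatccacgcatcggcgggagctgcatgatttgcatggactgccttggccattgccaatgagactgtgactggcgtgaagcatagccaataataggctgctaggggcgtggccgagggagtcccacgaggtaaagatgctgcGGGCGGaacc
GGGCGG (either strand) was in 46.0% of the 137 channel windows and in 35.7% of all 32851 windows of this length. TGACGT was in 4.38% of channel windows against 7.51% of all, and a TATAAA box in 5.11% against 13.6%. The channel windows were also richer in G and C (median 58.3% against 52.7%) and in CpG (median 9 against 7). The part of base content in these shares was not tested. The Kcnab2 window is the only 1 of the 4 shown with a TGACGT match. It was also the only match in the 8 windows of members higher in acute Input, so the other Kcnab2 windows had none. Among members lower in acute Input, 1 of 25 windows had a match. A match is a run of letters and was not tested as a binding site.

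The first question was which channels these tissues express. Levels between genes are given per length, as RPKM (CPM per 1000 bases of summed exon length). Auxiliary subunits led both fractions. Kcnab2 was at 94.0 ± 4.66 RPKM (SD, n = 5) in healthy Input and 131 ± 29.4 in healthy IP, and Cacnb3, a calcium channel beta subunit, was at 90.6 ± 2.17 and 94.7 ± 15.3. Kcnab2 and Cacnb3 did not differ beyond their spread in Input. Of the 138 members, 82 had a mean of at least 10 CPM in healthy Input and 109 at least 1 CPM, and 3 had no read in any library.

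**Figure D1:**
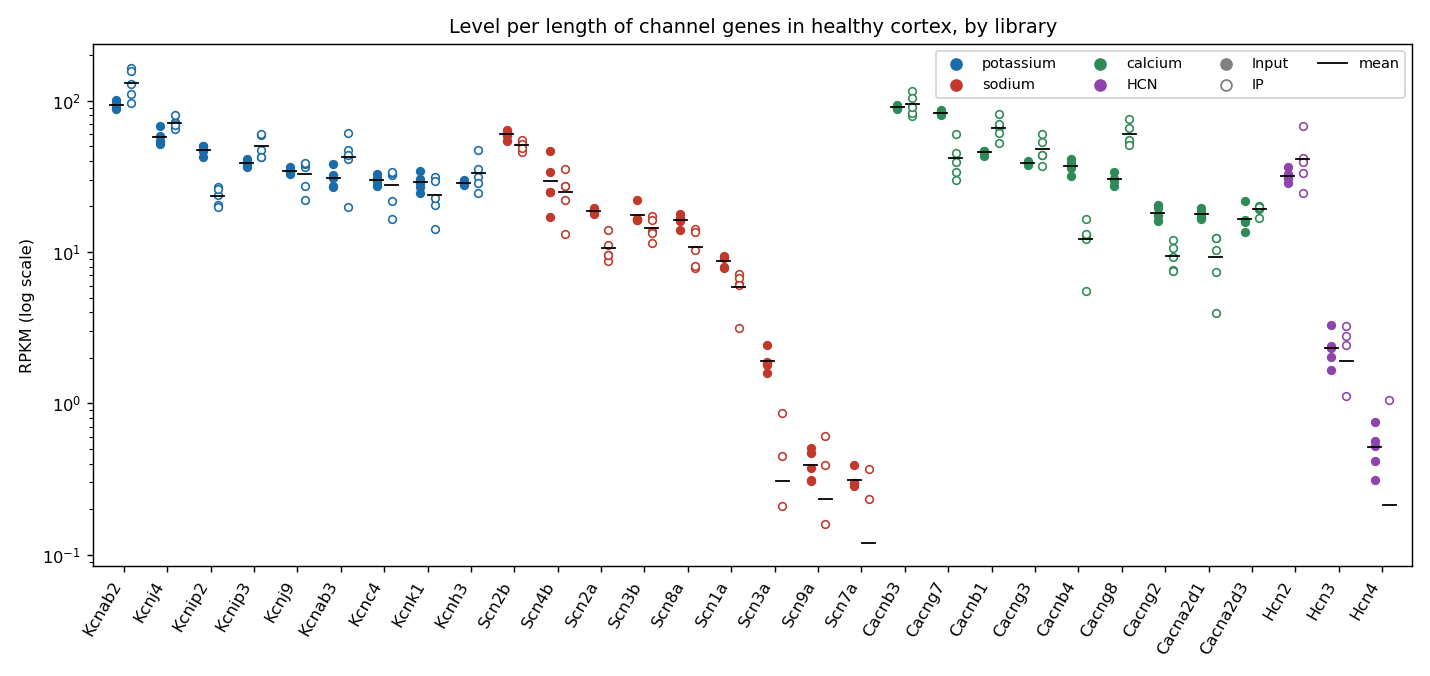
RPKM (log scale) of selected potassium, sodium, calcium and HCN channel genes, ordered by level within each family, in each healthy library, with Input as filled and IP as open circles and the mean as a bar; libraries at 0 are not drawn. Kcnab2 and Cacnb3 lie close together in Input at 94.0 and 90.6 RPKM, and the IP libraries spread more widely.

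Among the sodium pores, Scn2a and Scn8a were close in healthy Input at 18.6 ± 0.688 and 16.2 ± 1.42 RPKM. Scn1a, known mainly for interneuron firing, was at 8.74 ± 0.740, and Scn3a, the pore of the developing brain, at 1.91 ± 0.307 RPKM. The order Scn2a, Scn8a, Scn1a, Scn3a also held for the means in healthy IP (10.6, 10.8, 5.84 and 0.306 RPKM), except that Scn2a and Scn8a changed places within their spread. Scn3a had no read in 2 of 5 healthy IP libraries. Of the auxiliary genes, Scn2b was at 60.1 ± 4.13, Scn4b, the blocking subunit of resurgent sodium current, at 29.5 ± 11.2 and Scn3b at 17.5 ± 2.51 RPKM in healthy Input.

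The calcium pores were all long and low per length. Cacna1a and Cacna1b, the P/Q- and N-type channels of the presynaptic terminal, were at 7.86 ± 0.320 and 7.38 ± 0.407 RPKM in healthy Input and did not differ beyond their spread. The T-type genes Cacna1i, Cacna1g and Cacna1h, which open near rest and support bursts, were at 6.78 ± 0.289, 4.22 ± 0.246 and 2.78 ± 0.350 RPKM. The R-type gene Cacna1e was at 6.17 ± 0.388, and the L-type genes Cacna1d and Cacna1c at 3.15 ± 0.304 and 2.28 ± 0.202. The 8 gamma genes ranged widely. Cacng7, Cacng3, Cacng8 and Cacng2, which regulate AMPA receptors, were at 83.2 ± 2.70, 38.7 ± 0.838, 30.2 ± 2.34 and 18.2 ± 1.76 RPKM, above every calcium pore, while Cacng5 (1.72 ± 0.767), Cacng6 (0.638 ± 0.137) and Cacng1 (0.204 ± 0.130) lay below the pores just named.

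Hcn2 was at 31.9 ± 3.08 RPKM in healthy Input and 41.4 ± 16.3 in healthy IP. Hcn3 was at 2.33 ± 0.599 in healthy Input and Hcn4, the pacemaker isoform of the heart, at 0.513 ± 0.168, and the ranges of these genes did not overlap there. In healthy IP libraries 1 to 5, Hcn2 stood at 78.2, 134, 125, 107 and 218 CPM. The highest of them was replicate 5, 1 of the 4 IP libraries with the fewest detected genes. No HCN gene was called between IP and Input in any phase: the log2 ratios of Hcn2 were 0.38 ± 0.21, 0.38 ± 0.21 and -0.06 ± 0.23 in healthy, acute and chronic mice (edgeR adjusted p = 0.24, 0.23 and 0.91).

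The second question was what acute disease did to channel RNA in whole cortex. In Input, 20 channel genes fell and 8 rose in acute EAE against healthy cortex, of 115 tested. Those that fell included Kv pores of several families (Kcnv1, Kcnq3, Kcnh7, Kcnb2), the inward rectifier Kcnj3, the sodium pores Scn1a and Scn2a and the calcium genes Cacna1b, Cacnb2 and Cacnb4, and those that rose included the Kv partners Kcnab2 and Kcnip3 and the leak channel Kcnk6. The changes were small: among genes averaging 1 CPM or more, log2 changes ran from -0.81 to -0.17 for those that fell and from 0.26 to 0.72 for those that rose. Called shares were 17.4% lower and 6.96% higher, and over all 16381 genes tested they were 8.59% lower and 11.1% higher. The median change was -0.09 over the members and -0.01 over all genes. In 15 members every acute library lay below every healthy one and in 4 above, against 5.58% and 9.01% of all genes.

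Kcnv1, an electrically silent Kv subunit that assembles with Kcnb pores (chromosome 15, 45106284 to 45114934, GRCm38), had 77.1, 77.4, 86.5, 86.7 and 77.0 CPM in the healthy Input libraries. In acute Input it had 59.4, 54.1, 56.9, 55.9 and 63.1 CPM. In chronic Input it had 85.0, 71.5, 75.7 and 91.6 CPM. All acute libraries lay below all healthy and chronic ones. Its log2 change was -0.48 ± 0.07 SE in acute against healthy (edgeR quasi-likelihood adjusted p = 4.55e-05) and 0.49 ± 0.07 in chronic against acute (adjusted p = 0.000684). Kcnb2, a delayed-rectifier pore with which it can assemble, fell by 0.37 ± 0.07 in acute Input (adjusted p = 0.0014).

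Kcnq3 forms the M-current, a slow potassium current that restrains repetitive firing, together with related subunits such as Kcnq5. It stood at 165, 196, 192, 205 and 180 CPM in healthy Input. In acute Input it stood at 159, 149, 141, 152 and 147 CPM. In chronic Input the values were 187, 192, 173 and 193 CPM. The acute values lay below all of the others. The change was -0.33 ± 0.05 in acute against healthy (adjusted p = 0.000208) and 0.32 ± 0.06 in chronic against acute (adjusted p = 0.00221). Kcnq5 fell by 0.18 ± 0.06 (adjusted p = 0.0264), a call lost without any 1 of 5 libraries.

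Kcnh7 had 83.1, 88.0, 75.2, 92.8 and 90.9 CPM in healthy Input and 68.6, 65.1, 71.9, 66.6 and 61.9 CPM in acute Input. In chronic Input it had 98.0, 85.0, 80.2 and 81.9 CPM. The acute libraries were the lowest in each case, and the log2 change was -0.36 ± 0.06 in acute against healthy (adjusted p = 0.000326). Kcnj3 had 106, 98.3, 95, 104 and 106 CPM in healthy Input, 76.3, 82.8, 77.7, 83.7 and 88.3 CPM in acute Input and 101, 92.0, 98.5 and 102 CPM in chronic Input. Again no acute value reached the other groups, and the change was -0.32 ± 0.05 (adjusted p = 0.000185). An antisense gene covers 31.1% of the exonic bases of Kcnj3, and counts were taken without strand, so that reads of the pair cannot be told apart.

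Scn1a and Scn2a lie in a cluster with Scn3a, Scn7a and Scn9a on chromosome 2 (65457118 to 66784914). Scn2a had 171, 180, 168, 165 and 178 CPM in healthy Input and 156, 149, 140, 164 and 152 CPM in acute Input, with no overlap. In chronic Input it had 165, 177, 173 and 193 CPM. It fell by 0.18 ± 0.05 in acute against healthy (adjusted p = 0.0131) and rose by 0.22 ± 0.05 in chronic against acute (adjusted p = 0.0122). Scn1a had 87.5, 102, 88.3, 104 and 103 CPM in healthy Input and 83.0, 81.7, 83.4, 87.6 and 80.0 CPM in acute Input, where the highest acute value passed the lowest healthy one by a small margin. It fell by 0.22 ± 0.06 (adjusted p = 0.0165, lost without healthy replicate 4 or 5). Scn8a, on another chromosome, changed by -0.06 ± 0.06 and did not pass (adjusted p = 0.53), and Scn3a by -0.29 ± 0.11 (adjusted p = 0.07).

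Calcium channel calls in acute Input were 4 lower and 1 higher of 23 tested. Cacnb4 was at 323, 368, 283, 351 and 337 CPM in healthy Input and at 290, 279, 282, 276 and 229 CPM in acute Input, with the highest acute library above the lowest healthy one. It fell by 0.29 ± 0.07 (adjusted p = 0.00732), and 16% of its exonic bases are shared with an antisense gene. The N-type pore Cacna1b fell by 0.23 ± 0.06 (adjusted p = 0.00545), Cacnb2 by 0.21 ± 0.05 (adjusted p = 0.00699) and Cacna2d1, a subunit that brings calcium channels to the terminal, by 0.29 ± 0.09 (adjusted p = 0.0279, lost without any 1 of 5 libraries). Cacna1h rose by 0.26 ± 0.09 (adjusted p = 0.0477), a call lost in 8 of 10 fits that left out a library. The P/Q-type gene Cacna1a changed by -0.05 ± 0.05 and did not pass (adjusted p = 0.46). Among the HCN genes only Hcn4 was called, at a level of 0.746 to 2.88 CPM in healthy and acute Input, with a change of -0.81 ± 0.27 (adjusted p = 0.0436, lost in 7 of 10 fits that left out a library).

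The members that rose were led by Kcnab2. It had 503, 529, 495, 561 and 533 CPM in healthy Input and 637, 637, 617, 657 and 622 CPM in acute Input, so that every acute library was above every healthy one. In chronic Input it had 577, 563, 566 and 552 CPM. The log2 change was 0.27 ± 0.03 in acute against healthy (adjusted p = 1.38e-05), the smallest p of any member in this comparison, and -0.16 ± 0.04 in chronic against acute (adjusted p = 0.0104). Kcnip3, a calcium sensor that binds Kv channels and also acts in the nucleus, rose by 0.27 ± 0.06 (adjusted p = 0.00224).

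Kcnk6 was the low-abundance exception. This tandem-pore-domain gene had 2.65, 3.17, 3.35, 4.17 and 3.80 CPM in healthy Input, 5.74, 6.81, 5.56, 5.10 and 4.89 CPM in acute Input and 3.85, 4.41, 4.19 and 4.90 CPM in chronic Input. No acute value overlapped a healthy one, and the change was 0.72 ± 0.14 (adjusted p = 0.00124). In IP it was read in 2 of 5 healthy, 3 of 5 acute and 2 of 4 chronic libraries. Scn10a and Kcnk5 were also called higher, by 1.64 ± 0.47 and 1.35 ± 0.47 (adjusted p = 0.0181 and 0.0481), at an average under 1 CPM. Among Input libraries, both had 10 or more reads in acute ones only. They thus passed the count filter only through the group where they are high, and their calls lend no support.

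**Figure D2:**
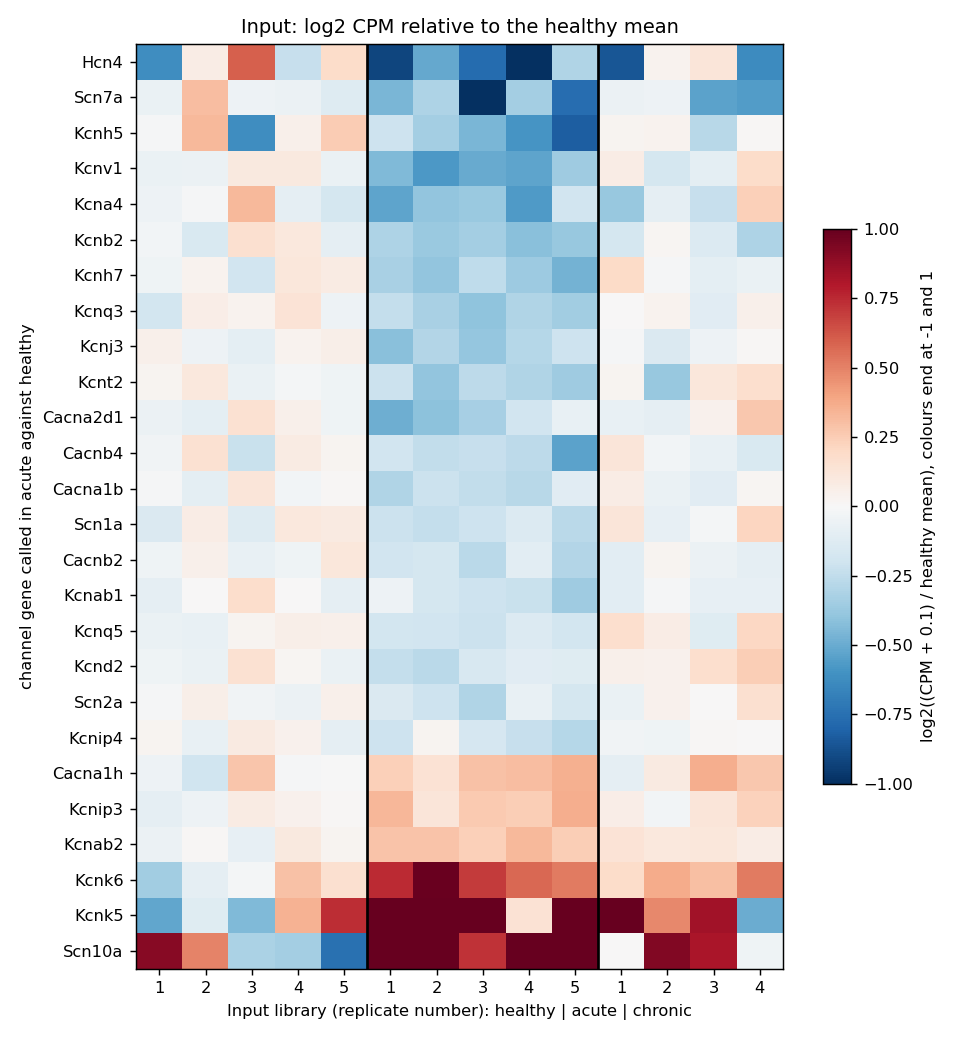
Rows are 26 of the 28 channel genes called in acute against healthy Input and columns are Input libraries, coloured by log2((CPM + 0.1) / healthy mean) with the scale ending at -1 and 1. The 20 genes that fell are mostly blue in the acute columns and the 6 shown that rose are red.

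Markers of other cells moved in the same Input libraries. Of 6 microglia markers, 4 rose and 1 fell in acute Input, with a summed level of 29.1 to 42.2 CPM in healthy and 63.0 to 94.1 CPM in acute libraries. The 4 leukocyte markers tested all rose, from a sum of 1.42 to 2.18 CPM to one of 15.7 to 32.5 CPM, and Cd3e, which was not tested, had no read in 3 of 5 healthy libraries. Of 6 astrocyte markers, 2 rose, with sums of 674 to 985 CPM and 991 to 1517 CPM. Neuronal markers moved as well. Of 7 markers of upper layers and layer 6, 3 fell in acute Input, among them Rorb of layer 4 (-0.63 ± 0.11, adjusted p = 0.000561), and in chronic against acute Input 2 of the 7 rose. Their sum was 650 to 730 CPM in healthy, 568 to 667 CPM in acute and 646 to 734 CPM in chronic Input. The summed layer 5 markers were 663 to 723 CPM in healthy and 685 to 763 CPM in acute Input. The part of these cells in the channel changes was not tested. Members known from immune or glial cells did not pass in Input: Kcna3, the main Kv channel of T cells, changed by -0.20 ± 0.16 (adjusted p = 0.42), Kcnj10, the potassium-buffering channel of astrocytes, by 0.52 ± 0.24 (adjusted p = 0.17), and Kcnk13, a microglial leak channel, by 0.03 ± 0.15 (adjusted p = 0.92), while Kcnn4 was under the count filter in both fractions.

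The third question was whether the chronic phase looked like the acute one. No channel gene was called in chronic against healthy Input with edgeR, where 449 of 16381 genes (2.74%) were called in all. An unadjusted edgeR p under 0.05 was found for 15 of 115 members and for 14.1% of all genes. DESeq2 called 1 of 115 members and 706 of 16379 genes. Among the members with the smallest p were Kcnip2, an auxiliary subunit of the A-type current (0.18 ± 0.05, adjusted p = 0.0856), and Kcng1 (-0.37 ± 0.12, adjusted p = 0.121), and both failed the correction.

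Chronic against acute Input, which shares the acute libraries with the comparison above, gave 15 members higher and 1 lower. The shares were 13.0% higher and 0.870% lower, against 2.95% and 4.74% over all genes tested, and the median was 0.13 for the members and 0.01 for all genes. In 21 members every chronic library lay above every acute one and in 2 below, against 3.99% and 6.57% of all genes. Beside Kcnv1, Kcnq3 and Scn2a, given above, the calls included Kcnh7 (0.37 ± 0.07, adjusted p = 0.00231), Kcnd2, the main A-type pore of dendrites (0.31 ± 0.06, adjusted p = 0.00447), Kcnj3 (0.27 ± 0.05, adjusted p = 0.00456), Cacna1i (0.25 ± 0.05, adjusted p = 0.00441), Scn1a (0.28 ± 0.07, adjusted p = 0.012) and Kcnq5 (0.27 ± 0.06, adjusted p = 0.00799). Kcnip2 had 147, 146, 158, 165 and 160 CPM in acute and 199, 184, 181 and 183 CPM in chronic Input, with no overlap (0.27 ± 0.05, adjusted p = 0.00498). Kcna1, Kcnn3, Cacna1b, Cacna2d1 and Cacnb4 were also called, each lost in at least 6 of 9 fits that left out a library. All calls between phases in Input were lost when Input and IP libraries were fitted together with 1 shared spread.

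**Figure D3:**
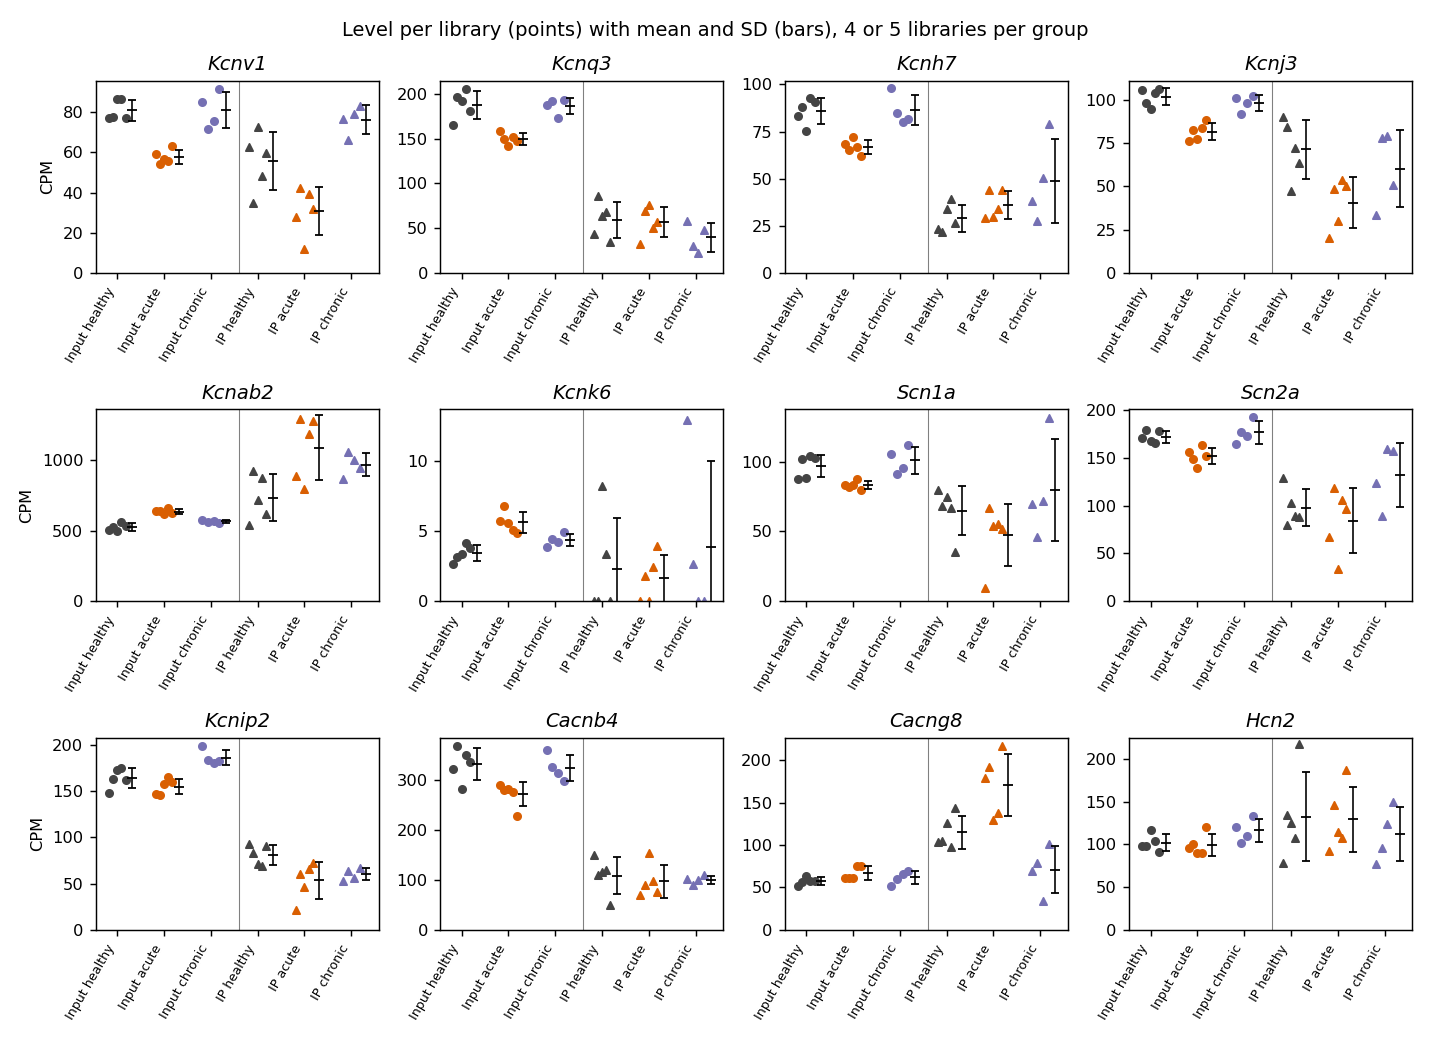
CPM of 12 channel genes in every library (circles for Input, triangles for IP), with mean and SD beside them for the 4 or 5 libraries of a group; SD bars are cut at 0. Acute Input is lowest for Kcnv1, Kcnq3, Kcnh7, Kcnj3 and Scn2a and highest for Kcnab2, while the IP libraries of a group spread widely.

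The same contrasts in the pulled-down RNA gave no call. No member passed in acute against healthy IP, in chronic against healthy IP or in chronic against acute IP with edgeR, of 105 tested. Over all 13914 genes tested, 9 (0.0647%), 26 (0.187%) and 0 (0%) were called. An unadjusted edgeR p under 0.05 was found for 11, 11 and 10 members and for 6.26%, 10.7% and 8.23% of all genes. DESeq2 gave an adjusted p to only 47, 48 and 26 members and called 1, 2 and 3 of them. It called 123 of 4738, 287 of 5008 and 180 of 2851 genes. The spread between IP libraries was far above that between Input libraries, as given above, and a p that misses the threshold here does not show that levels were alike. With all 28 libraries in 1 fit the counts were 8 higher and 3 lower, 11 and 8, and 2 and 11 of 117, where 7.64% of all genes were higher and 2.07% lower, 6.88% and 8.50%, and 2.26% and 8.37%. The members' totals in that fit (11, 19 and 13) were thus close to the background.

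The members with the smallest p in IP are given as values that failed the correction. Kcnv1 had 62.6, 34.8, 72.8, 48.3 and 59.6 CPM in healthy IP, 28, 42.1, 11.9, 39.3 and 31.9 CPM in acute IP and 76.5, 66.2, 79.3 and 83.0 CPM in chronic IP. Acute and healthy libraries overlapped, and all chronic ones lay above all acute ones (-0.87 ± 0.31 in acute against healthy, adjusted p = 0.492, and 1.32 ± 0.33 in chronic against acute, adjusted p = 0.198). Kcnab2 had 537, 922, 719, 874 and 615 CPM in healthy, 889, 1286, 793, 1186 and 1276 CPM in acute and 865, 1055, 1001 and 942 CPM in chronic IP, and its change in acute IP was 0.56 ± 0.16 (adjusted p = 0.306). Cacng8, an AMPA receptor partner, had 103, 105, 126, 97.2 and 143 CPM in healthy IP. It had 178, 192, 130, 138 and 217 CPM in acute IP and 69.6, 78.4, 34.0 and 101 CPM in chronic IP. The chronic libraries were all below the acute ones (-1.27 ± 0.27, adjusted p = 0.14). Scn8a had 95.8, 125, 173, 164 and 97.4 CPM in healthy IP, 106, 217, 179, 174 and 226 CPM in acute IP and 176, 271, 236 and 241 CPM in chronic IP. All chronic libraries lay above all healthy ones, and the change was 0.81 ± 0.23 (adjusted p = 0.162). Cell type markers moved in IP too. In acute against healthy IP, 1 of 6 astrocyte markers rose, Gfap (2.81 ± 0.44, adjusted p = 0.0282), and their sum was 581 to 928 CPM against 257 to 544 CPM in healthy IP, with no overlap. Of 8 layer 5 markers 1 rose in acute IP, Nefh (1.10 ± 0.18, adjusted p = 0.0169), with sums of 1555 to 2245 CPM against 1207 to 1559 CPM, which overlapped. In chronic against healthy IP, 1 of 8 inhibitory neuron markers rose, Gad1 (0.97 ± 0.19, adjusted p = 0.0271), and their sum was 1011 to 1402 CPM against 608 to 824 CPM. None of the 6 astrocyte or 6 oligodendrocyte markers was called in chronic against healthy IP, and both sums overlapped between these groups (454 to 1352 against 257 to 544 CPM, and 1165 to 2900 against 1033 to 1326 CPM). Their part in the channel values was not tested.

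The fourth question was which channels the pulldown enriched. In healthy mice 24 of 117 members tested were lower in IP than in Input and 4 higher, in acute mice 20 lower and 14 higher, and in chronic mice 23 lower and 6 higher. Over all 16580 genes the shares were 14.4% lower and 7.2% higher, 10.1% and 8.56%, and 20% and 8.74%, against 20.5% and 3.42%, 17.1% and 12%, and 19.7% and 5.13% of the members. In healthy mice the median ratio was lower for genes over 8 kb than for those of 2 to 4 kb, channels or not, as described below. With an offset for exon length the split became 9 lower and 20 higher, 4 and 32, and 14 and 22 members, against 9.16% lower and 21.3% higher, 4.55% and 26.4%, and 12.9% and 22.8% of all genes. Under that offset the median of all genes moved from -0.23, -0.36 and -0.32 to 0.44, 0.44 and 0.48 and that of the members from -0.59, -0.44 and -0.42 to 0.12, 0.28 and 0.28. Without the 4 IP libraries with the fewest genes, the counts were 40 lower and 10 higher in healthy, 19 and 21 in acute, and 38 and 11 in chronic mice, of 118 tested. All genes then gave 21.4% lower and 12.8% higher, 11.2% and 15.7%, and 28% and 14.1%.

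Kcnab2 was called higher in IP in all 3 phases, with log2 ratios of 0.48 ± 0.13, 0.78 ± 0.13 and 0.77 ± 0.14 in healthy, acute and chronic mice (adjusted p = 0.00448, 3.24e-05 and 0.000155), and it held in every alternative run. Cacnb1, a beta subunit that traffics calcium channels to the membrane, was at 302, 368, 238, 317 and 276 CPM in healthy IP against 196, 209, 210, 208 and 212 CPM in healthy Input. No IP library fell to the Input range (0.54 ± 0.12, adjusted p = 0.0011), and acute mice gave 0.84 ± 0.12 (adjusted p = 3.53e-06). Cacng8 was at 51.4, 56.1, 63.8, 57.8 and 57.2 CPM in healthy Input, below all 5 healthy IP libraries given above. Its ratio was 1.0 ± 0.19 in healthy (adjusted p = 0.000322) and 1.36 ± 0.20 in acute mice (adjusted p = 5.63e-06). These calls also held with the length offset, but that offset raised the median of all genes. Keeping a higher call under such a shift, for Cacng8 or Kcnab2, lends no support.

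Other members were called higher in diseased mice, and for none of those named here did the interaction test, which compares the ratio with that in healthy mice, pass. Cacna2d3 had ratios of 0.87 ± 0.15 in acute and 0.85 ± 0.17 in chronic mice (adjusted p = 0.000104 and 0.000452). Kcng1 and Kcnf1, silent subunits of Kv channels, had ratios of 1.51 ± 0.32 and 0.62 ± 0.14 in acute mice (adjusted p = 0.000837 and 0.00123) and 1.37 ± 0.36 and 0.78 ± 0.15 in chronic mice (adjusted p = 0.00442 and 0.000365). The chronic call of Kcng1 was lost without chronic replicate 1. Kcnn2, the small-conductance calcium-activated channel of the afterhyperpolarisation, had 1.19 ± 0.28 in acute mice (adjusted p = 0.00271), and Cacna1h 0.94 ± 0.19 (adjusted p = 0.000518).

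Lower in IP in all 3 phases were 10 members: Cacnb2, Cacnb4, Cacng2, Cacng7, Kcna1, Kcnc1, Kcnc2, Kcnh7, Kcnip2 and Kcnq3. Kcnc1 and Kcnc2 encode the fast Kv channels of fast-spiking interneurons. Kcnc1 had 172, 189, 191, 213 and 201 CPM in healthy Input and 77.4, 78.2, 84.0, 84.8 and 110 CPM in healthy IP, without overlap. Its ratio was -1.15 ± 0.20 in healthy, -1.14 ± 0.20 in acute and -1.12 ± 0.22 in chronic mice (adjusted p = 8.74e-05, 8.02e-05 and 0.000388). Cacng7 had 183, 180, 191, 187 and 176 CPM in healthy Input and 86.3, 99.6, 66.3, 75.0 and 132 CPM in healthy IP (-1.0 ± 0.16, adjusted p = 4.61e-05). It lies close to Cacng8 on chromosome 7, and their summed exon lengths are 2207 and 1897 bases, but the pair stood on opposite sides of Input. The calls of Kcnc1 and Cacng7 were lost in each phase with the length offset, which also raised the median of all genes. Cacnb4 (-1.62 ± 0.20, adjusted p = 7.49e-07) and Kcnq3 (-1.67 ± 0.23, adjusted p = 4.39e-06) kept theirs in healthy mice.

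Of the sodium pores, Scn2a was lower in healthy IP (-0.81 ± 0.21, adjusted p = 0.00386) and acute IP (-0.85 ± 0.21, adjusted p = 0.00335) and did not pass in chronic mice (-0.42 ± 0.23, adjusted p = 0.21). Scn8a was lower in healthy IP (-0.59 ± 0.17, adjusted p = 0.00996, lost without healthy replicate 5) and stood at -0.07 ± 0.17 and 0.09 ± 0.19 in acute and chronic mice (adjusted p = 0.84 and 0.82). The test of the difference in Scn8a between chronic and healthy mice gave 0.68 ± 0.25 (adjusted p = 0.12). With the length offset, the healthy ratios of Scn2a and Scn8a turned to 0.01 and 0.32 and were not called. Both still lay below the median of all genes under that offset, which was 0.44.

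**Figure D4:**
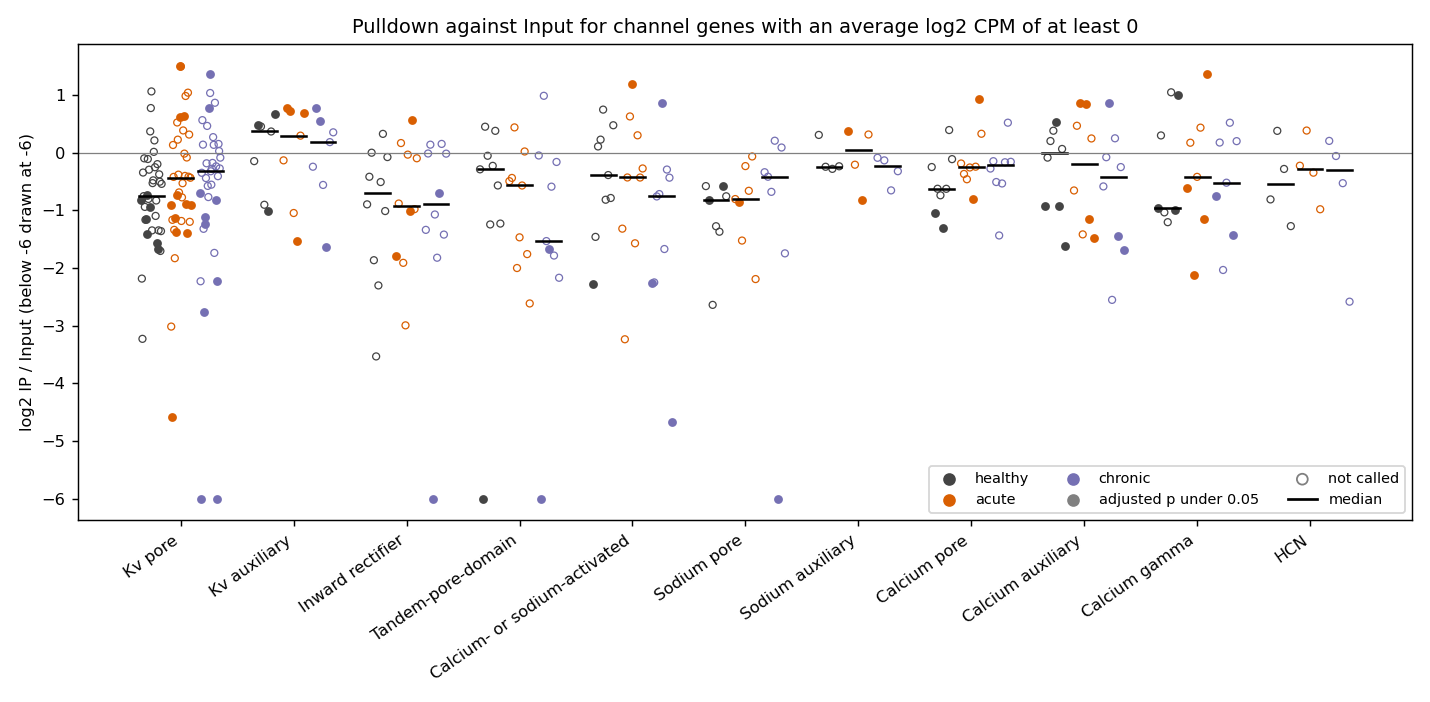
Log2 ratio of IP to Input for channel genes of average log2 CPM 0 or more, by subfamily and phase, with filled points for an adjusted p under 0.05 and a bar at the median; ratios below -6 are drawn at -6. Most medians lie below 0, and the auxiliary Kv genes are the subfamily with a median above 0 in all 3 phases among the genes drawn; over all 12 tested, less abundant ones included, their medians were -0.63, -0.53 and 0.23 in healthy, acute and chronic mice.

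Several low members had no read in any IP library of a phase. Bounds set the empty group at 3 counts in all and allow for counting error alone, not for the wide spread between IP libraries. The true difference could thus be smaller than a bound. An empty group cannot pass the count filter, so these genes entered the test through other groups, and their calls lend no support. Kcnk10 was at least 56.7-fold lower in healthy IP than in Input (0 of 5 libraries with a read, adjusted p = 0.000116) and at least 50.3-fold lower in chronic IP (adjusted p = 0.000291). In acute IP it had 131 reads in 4 of 5 libraries. Kcna3 was at least 99.2-fold lower in chronic IP (adjusted p = 0.00363), and had a read in 1 of 5 healthy and 1 of 5 acute IP libraries.

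An interaction compares the IP change from healthy with the Input change. In the chronic interaction 1 of 117 members was called, where 1.03% of all genes were, and that call was lost without healthy replicate 2, 3 or 4 or any chronic replicate, 7 of 9 such fits. Without the 4 IP libraries with the fewest genes, 6 members were higher and 4 lower of 118, against 5.27% and 5.52% of all genes. In the acute interaction no member was called with edgeR, where 0.00603% of all genes were. An unadjusted edgeR p under 0.05 was found for 10 of 117 members and for 11.5% of all genes. DESeq2 called 4 of 116 members and 363 of 16234 genes. Without those 4 libraries edgeR called 10 of 118, all higher, against 7.23% of all genes higher and 0.840% lower. Without acute replicate 1 it called 2 of 116 members and 287 of 16511 genes.

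The pulldown ratio in healthy mice was lower for longer transcripts among abundant genes. Among the 70 members with an average log2 CPM over 4, summed exon length and the healthy log2 ratio had a Pearson correlation across genes of -0.43, and among all 8315 genes of that abundance it was -0.38. With genes of lower counts included it was 0.09 over the 117 members tested and 0.05 over all 16580 genes, with Spearman values of -0.15 and -0.14. Genes are not independent replicates, and these share their libraries. The median ratio was -0.29 for the 37 members of 2 to 4 kb and -0.81 for the 25 members over 8 kb, and -0.07 and -0.66 for all genes of those lengths. The source of the relation was not tested.

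**Figure D5:**
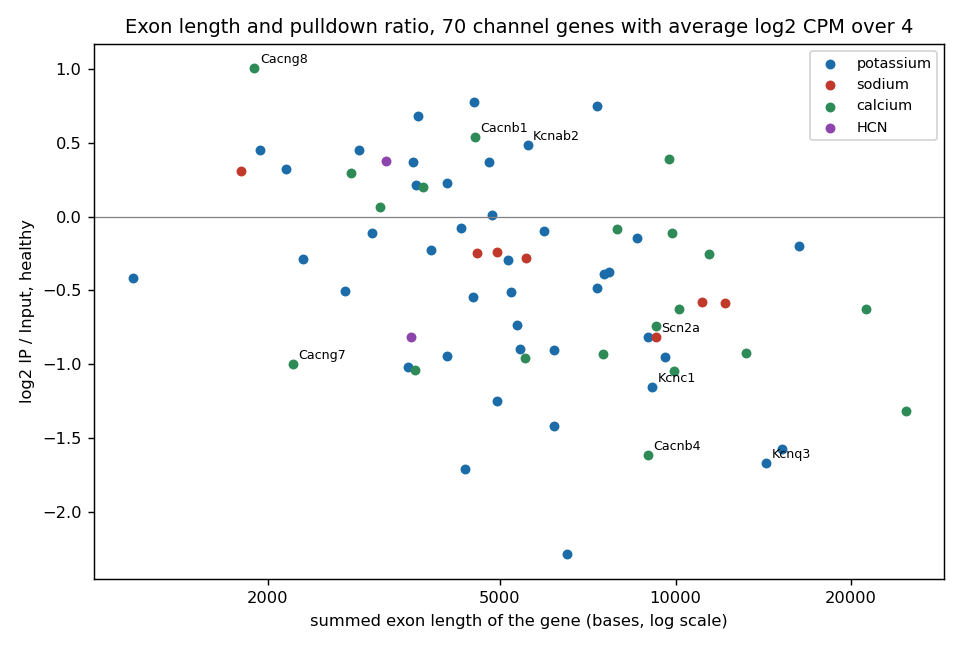
Log2 ratio of IP to Input in healthy mice against summed exon length (log scale) for the 70 channel genes with an average log2 CPM over 4, coloured by channel group. The ratio falls with length (Pearson -0.43), with Cacng8 highest at 1.0 and Cacnb4 and Kcnq3 among the lowest at -1.62 and -1.67.

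Genes whose proteins anchor, modify or regulate channels were read from a list of 35, all of which were tested. In acute Input 8 were lower and 3 higher, with a median of -0.12, where 8.59% of all genes were lower and 11.1% higher. Of the 4 fibroblast growth factor homologues on the list, which bind sodium channels, 3 fell, with Fgf14 at -0.49 ± 0.07 (adjusted p = 5.95e-05), Fgf12 at -0.30 ± 0.04 (adjusted p = 6.85e-05) and Fgf13 at -0.19 ± 0.05 (adjusted p = 0.011), and Fgf11 had a change of -0.15 ± 0.07 that did not pass (adjusted p = 0.163). Akap5, a scaffold for kinases at calcium and M-type channels, fell by 0.43 ± 0.05 (adjusted p = 3.22e-06) and Lrrc55, a BK channel auxiliary subunit, by 0.61 ± 0.10 (adjusted p = 0.000156). Sptbn4, the spectrin of the axon initial segment, rose by 0.28 ± 0.06 (adjusted p = 0.00134) and Stac2, a calcium channel regulator, by 0.45 ± 0.10 (adjusted p = 0.00536). In chronic against acute Input, which shares the acute libraries, 5 of the 35 were higher and 1 lower (2.95% and 4.74% of all genes), with Lrrc55 at 0.56 ± 0.10 (adjusted p = 0.00276) and Fgf14 at 0.29 ± 0.07 (adjusted p = 0.0205). None was called between phases in IP. In healthy IP against Input 3 were higher and 7 lower, near the 7.2% and 14.4% of all genes, among them Dpp6, a partner of A-type channels, higher by 0.59 ± 0.17 (adjusted p = 0.00914), and Unc80, a subunit of the sodium leak channel, lower by 1.45 on the log2 scale.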

How the data were processed

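The series holds 28 poly A RNA-seq libraries (14 Input, 14 IP). The authors deposited raw read-pair counts per gene, made with featureCounts 1.5.1 on Ensembl release 79 (GRCm38) exons with no strand option, per the file headers. Their header names 36 alignment files, and the 28 columns analysed here all matched a labelled sample. STAR 2.4 and DESeq2 are named in the submitters' processing notes. Symbols from the reference tables matched 42462 genes (97.3%).

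Genes passing filterByExpr (minimum count 10, minimum total 15) were tested with edgeR 4.0.16 (R 4.3.3) by the robust quasi-likelihood test with TMM scaling, separately for Input (16381 genes), IP (13914) and all 28 libraries (16580, for IP against Input and the interactions), with Benjamini-Hochberg adjustment over all genes and calls at an adjusted p under 0.05. The fit of all 28 libraries shares its estimate of the spread between the fractions, which differ strongly in it. Errors of fold changes are standard errors, and other errors are SDs. CPM used TMM-scaled totals, and RPKM divided CPM by the summed exon length in the deposited table. Of the 138 members, 115, 105 and 117 passed the filters. Members that passed through the group where they are high are included, so counts are of members tested. Within every group, pairs of libraries differed beyond counting error (chi-square per degree of freedom 4.24 to 178), so none was merged. Intervals and floors cover counting error only.

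Alternatives were DESeq2 1.42.0, its size factors, no filter, a block for replicate number, all libraries in 1 fit, the 4 poorest IP libraries left out, an exon-length offset, and each replicate left out. The tests were checked on simulated data with planted changes. In acute against healthy Input, 79.6% of 2-fold and 99.0% of 4-fold changes were called. The shares were only 12.1% and 37.8% in acute against healthy IP, and 20.6% and 54.2% in healthy IP against Input. Members and lists were chosen with earlier results of these data known. Named genes are, per comparison, up to 8 higher and 8 lower calls of smallest p, the members with the highest RPKM per group, and a list of main channels; Cacna2d1, Scn10a, Kcnk5, Kcnn3 and the acute value of Kcnn2 fall outside it and were chosen after their values were seen. Some genes are counted but not reported here by name.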

Additional observations from a re-analysis of the deposited data

Results flagged for a closer look

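Single libraries stood apart from the rest of their group by Dixon's criterion in 7 of 132 gene and group combinations, and chance flags about 1 in 20. In Input, Cacnb4 was at 229 CPM in acute replicate 5 (276 to 290 in the other libraries of the group). Kcnip2 was at 199 CPM in chronic replicate 1 (181 to 184) and Cacnb1 at 196 CPM in healthy replicate 1 (208 to 212). Across genes, deviations of Input acute replicate 5 from its group mean correlated with those of healthy replicate 3 (0.59) and chronic replicate 4 (0.53). The latter pair correlated at 0.55. Over 52 Input pairs of different phase and number, values ran from -0.44 to 0.59, with 17 over 0.1. The source was not tested. In IP, Scn1a was at 9.26 CPM in acute replicate 1 (51.9 to 66.8) and at 35 CPM in healthy replicate 5 (66.7 to 79.3), and both libraries are among the 4 with the fewest detected genes. Kcnc1 was at 110 CPM in healthy IP replicate 5 (77.4 to 84.8) and Cacna2d3 at 62.2 CPM in healthy IP replicate 2 (71.6 to 74.3).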

How the results depend on the processing

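Of 1766 alternative values for 138 single-gene results, 1509 kept their direction and their side of the threshold, 221 lost a call, 31 gained one and 5 turned direction. All 5 came from the exon-length offset on IP against Input: Kcna1 (0.0018, adjusted p = 0.997), Scn2a (0.014, adjusted p = 0.976) and Scn8a (0.32, adjusted p = 0.209) in healthy mice, and Kcnh7 (0.15, adjusted p = 0.684) and Cacna1e (0.31, adjusted p = 0.379) in acute mice. That offset moved the median of all genes from -0.23 to 0.44 in healthy and from -0.36 to 0.44 in acute mice. All 5 values lay below it. With all 28 libraries in 1 fit, calls numbered 0 in acute against healthy and 0 in chronic against acute Input, and 11, 19 and 13 in acute against healthy, chronic against healthy and chronic against acute IP. DESeq2 called 1 member in chronic against healthy Input, 1, 2 and 3 in those IP comparisons, and 4 and 5 in the acute and chronic interactions. In the chronic interaction DESeq2 called 958 of 16234 genes. Without the 4 IP libraries with the fewest genes, 50 and 49 members were called in healthy and chronic IP against Input and 10 in each interaction. The chronic interaction had 0 calls with no filter and 0 with the length offset. The cause was not tested. Leaving out 1 replicate gave 20 to 27 calls in acute against healthy Input, 0 to 1 in chronic against healthy Input (1 without healthy replicate 5), 11 to 18 in chronic against acute Input, 0 to 0 in each IP comparison, 28 to 34, 27 to 34 and 22 to 37 in healthy, acute and chronic IP against Input, 0 to 2 in the acute interaction (2 without acute replicate 1) and 0 to 1 in the chronic one. Over all genes those Input fits gave 2629 to 3320, 250 to 447 and 784 to 1188 calls, of 16281 to 16614 tested. The IP fits gave 1 to 50, 9 to 43 and 0 to 0, of 13570 to 14539. IP against Input gave 3016 to 3711, 2395 to 3138 and 4177 to 5067, of 16470 to 16888. The interactions gave 0 to 287 and 43 to 148.

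With a block for replicate number, calls numbered 31, 1 and 17 in acute against healthy, chronic against healthy and chronic against acute Input, 32, 33 and 28 in healthy, acute and chronic IP against Input, and 0 in the chronic interaction. Over all genes the block gave 3148, 386 and 931 calls of 16381 in Input. In IP against Input it gave 3439, 2414 and 4148 of 16580, and in the chronic interaction 28. Deviations of same-numbered IP and Input libraries correlated at -0.04 to 0.19 (7 of 14 over 0.1), and those with different numbers at -0.14 to 0.08. IP libraries correlated best with their own number in 3 of 5 healthy, 3 of 5 acute and 3 of 4 chronic cases, a hint from the data that does not establish pairing.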
